A study of Mus musculus with 15 samples.

Results

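A set of 10 genes of lipid handling was described in BMDMs, macrophages grown in culture from mouse bone marrow. The set belongs to the pathways of the liver X receptor (LXR) and the peroxisome proliferator-activated receptor (PPAR). The 10 were the receptor genes Nr1h2, Nr1h3, Rxra and Pparg, the lipid transporter genes Abca1 and Abcg1, the apolipoprotein gene Apoe, and Mylip, Lpcat3 and Lpl. These 10 genes were taken by name from 21938 protein-coding genes of the GENCODE M21 annotation. No measured value enters the rule, but the genes were chosen with earlier results of these data known. The assay was CUT & RUN, in which antibody-tethered nuclease cuts out the DNA around a target protein for sequencing. Its targets were H3K27ac (acetylation of histone H3 at lysine 27), H3K36me3 (trimethylation at lysine 36) and HA-tagged histone H3.3. Region lists of 10 libraries were compared, with 2 libraries in each of 5 groups: each of the 2 marks in WT and in cKO cells, and H3.3-HA. WT cells carried H3f3a fl/fl and H3f3b fl/fl without Cre. H3.3cKO (cKO) cells carried the same floxed alleles plus LysM cre/cre. The Cre stands in the myeloid gene Lyz2, so that Lyz2 itself is altered in cKO cells only. The H3.3-HA cells were of a separate genotype, from knock-in mice with HA-tagged H3f3b. Bone marrow came from mice of 8 to 10 weeks and was cultured for 6 to 8 days with 20% L929 conditioned medium. Cre driven by Lyz2 acts as myeloid cells mature, so the share of cells that have lost H3.3 is not fixed by the design.

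LXRα (Nr1h3) and LXRβ (Nr1h2) are nuclear receptors that sense oxidized cholesterol, and PPARγ (Pparg) senses fatty acids. Each binds DNA as a heterodimer with the retinoid X receptor, of which RXRα (Rxra) is the main form in macrophages. In a cholesterol-loaded macrophage the LXRs raise Abca1 and Abcg1, which export cholesterol, together with Apoe, which accepts it. Mylip encodes an E3 ligase that promotes loss of the LDL receptor, Lpcat3 inserts polyunsaturated chains into phospholipids, and Lpl encodes the lipase that frees fatty acids from lipoproteins. H3K27ac marks active promoters and enhancers, H3K36me3 is laid along the body of transcribed genes, and H3.3 is the histone variant placed at active chromatin outside of DNA replication.

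The lists hold positions only, without the height of any region, so a covered share describes where regions were called and not how strong they were. For every gene a window was set from 5 kb before it to its end. Covered share is the percent of the window that lies under called regions of a library. In this text a gene is called lower or higher in cKO where both cKO libraries lay on the same side of both WT libraries, without overlap. With 2 against 2 libraries the two-sided exact permutation test cannot go below 0.333, so none of the 20 coverage comparisons could pass a usual threshold, and every p of a gene without overlap was 0.333. Each count is therefore given beside the share of all genes that received the same call, apart from some counts under altered settings. A region lost from every cell and a region lost from part of the cells cannot be told apart in these bulk cultures.

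The libraries held between 5365319 and 29988098 tags. Across the genome, H3K27ac regions covered 89.6 and 74.8 Mb in WT and 46.2 and 62.0 Mb in cKO. Of the H3K27ac tags, 24.1 and 21.5% lay in regions in WT and 11.8 and 17.8% in cKO. H3K36me3 regions covered 164 and 170 Mb in WT, but 90.7 Mb in cKO replicate 1 against 163 Mb in cKO replicate 2, with 19.3% and 46.5% of tags in regions. H3K36me3 results are for this reason given with the value of each cKO library. The lists did not show the deletion: exon 2 of H3f3a was without a region throughout, and both cKO H3K27ac libraries had regions over exons 1 and 4 of H3f3b. H3K27ac covered 23.9 and 24.1% of the body of H3f3b in WT and 55.4 and 73.6% in cKO. Directions between WT and cKO thus rest on the sample labels. The study itself reported the deletion from PCR, RNA and protein, and described that of H3f3b as variable, complete or partial. Of 8 macrophage markers, 7 had an H3K27ac region in both WT libraries and 7 in both cKO libraries. No T cell, plasmacytoid dendritic cell, erythroid or fibroblast marker had one in any library. Of the 3 neutrophil markers Camp had one in 1 library, and of the 3 B cell markers Ms4a1 had one in 4 libraries and Cd79a in 2.

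Before the values, the sequence at the centre of 5 changed H3K27ac regions is shown, as examples of regions lost or gained as a whole at Lpl, Rxra, Abcg1 and Abca1. At Lpl and Rxra the printed region is a small part of the H3K27ac length that was lost, 824 bp beside 15.3 kb and 1930 bp beside 10.9 kb. Each is the 300 bp around the midpoint of a merged region, read from the plus strand of the RefSeq assembly GRCm38.p6, which is the mm10 build of the lists. Lost regions were called in both WT libraries and neither cKO library, and gained regions the reverse. Capitals mark direct repeats of the nuclear receptor half-site AGGTCA with at most 2 mismatches over the 12 fixed letters, on either strand. The repeats searched were DR4 (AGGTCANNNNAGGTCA), the spacing preferred by LXR with RXR, and DR1 (AGGTCANAGGTCA), the spacing preferred by PPAR with RXR.
Lpl, lost, intron 2, chr8:68890609-68890908: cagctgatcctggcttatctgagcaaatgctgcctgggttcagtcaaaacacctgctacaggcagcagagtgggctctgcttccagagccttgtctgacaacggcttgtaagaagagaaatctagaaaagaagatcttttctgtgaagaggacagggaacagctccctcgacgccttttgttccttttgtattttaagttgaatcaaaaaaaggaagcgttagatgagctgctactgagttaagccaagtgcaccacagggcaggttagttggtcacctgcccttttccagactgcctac
Rxra, lost, intron 9, chr2:27758035-27758334: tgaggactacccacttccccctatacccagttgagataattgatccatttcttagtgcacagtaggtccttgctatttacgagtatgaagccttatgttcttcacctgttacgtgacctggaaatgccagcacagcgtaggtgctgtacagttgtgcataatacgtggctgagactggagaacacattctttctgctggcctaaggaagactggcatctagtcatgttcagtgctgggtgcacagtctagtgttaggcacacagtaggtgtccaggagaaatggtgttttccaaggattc
Abcg1, lost, intron 2, chr17:31074951-31075250: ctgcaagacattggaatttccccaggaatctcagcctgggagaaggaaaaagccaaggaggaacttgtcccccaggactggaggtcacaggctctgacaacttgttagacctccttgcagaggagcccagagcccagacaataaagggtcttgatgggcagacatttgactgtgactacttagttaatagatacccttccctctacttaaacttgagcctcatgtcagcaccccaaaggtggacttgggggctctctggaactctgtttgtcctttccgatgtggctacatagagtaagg
Abca1, lost, intron 17, chr4:53080173-53080472: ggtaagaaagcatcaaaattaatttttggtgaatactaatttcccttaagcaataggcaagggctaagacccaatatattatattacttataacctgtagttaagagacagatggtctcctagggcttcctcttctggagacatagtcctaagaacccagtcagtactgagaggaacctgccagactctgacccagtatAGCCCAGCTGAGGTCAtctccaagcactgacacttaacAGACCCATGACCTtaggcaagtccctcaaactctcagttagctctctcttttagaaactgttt
Abca1, gained, intron 5, chr4:53119765-53120064: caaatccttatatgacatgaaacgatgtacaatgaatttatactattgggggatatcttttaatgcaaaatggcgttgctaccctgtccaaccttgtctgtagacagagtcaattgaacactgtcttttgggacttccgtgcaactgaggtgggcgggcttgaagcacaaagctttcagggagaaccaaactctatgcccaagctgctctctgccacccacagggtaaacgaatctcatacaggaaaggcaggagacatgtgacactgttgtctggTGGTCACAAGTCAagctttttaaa

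The lost Abca1 window held a DR4 match at position 200 on the plus strand and a DR1 match at position 238 on the minus strand, counted from 1 at the left end, each with 2 mismatches. The gained Abca1 window held a DR1 match at position 277 with 2 mismatches, and the Lpl, Rxra and Abcg1 windows held neither repeat. Over the 17 changed H3K27ac regions of the 10 genes, 1 window had a DR4 match (5.88%) and 2 had a DR1 match (11.8%). Among 89774 merged H3K27ac regions of the genome the shares were 3.26% and 4.33%. RefSeq promoters, from 250 bp before to 50 bp after a start site, were found for 8 of the 10 genes, in 14 entries, and Abcg1 and Lpl had no entry. None of the 14 had a DR4 match, and 1, an internal start of Rxra, had a DR1 match, beside 3.02% and 3.86% of 32851 promoters. A match is a description of letters and was not read as a binding site. Repeats with more than 2 mismatches were not counted, so a window without a match can still hold a weaker repeat.

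Called H3K27ac regions covered less of most of these genes in cKO. A smaller share of cKO tags lay in regions, as given above, and its part in these lengths was not tested. From read counts over the genome, the study reported more H3K27ac peaks increased than reduced in cKO. Summed over the 10 windows, H3K27ac regions covered 114 and 103 kb in the WT libraries and 43.8 and 50.5 kb in the cKO libraries, a cKO to WT ratio of 0.436, while the ratio of covered length in the whole genome was 0.658. Covered share was lower in cKO for 8 of the 10 genes and higher for 0, beside 38.2% and 17.4% of 12767 genes with a region. The genes that overlapped were Nr1h2 and Apoe. Long windows were called lower more often in general, and among windows of at least 50 kb 4 of 4 of these genes (Rxra, Pparg, Abca1 and Abcg1) were lower beside 59.4% of all. The median difference of the 10 genes was -11.1 percentage points of the window, and that of all genes -1.02. Leaving out 1 library at a time gave between 8 and 10 lower genes, while the share of all genes called lower was between 40.4% and 57.5%, with 57.5% beside the 10. With fewer libraries a call without overlap can only be kept or added, so this count could not fall below 8.

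**Figure D1:**
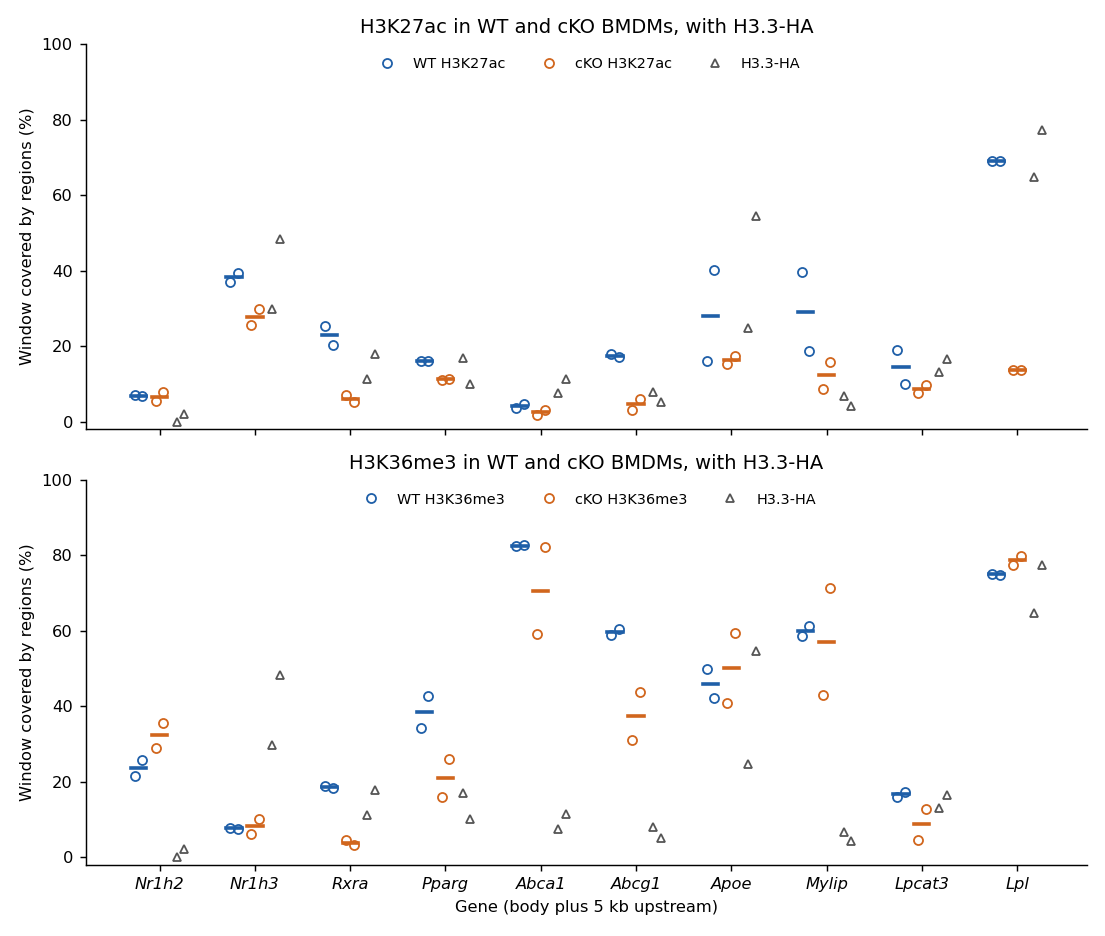
Percent of each gene's window covered by called regions in each library, for H3K27ac above and H3K36me3 below. Circles are single libraries (2 per group), bars are group means, and triangles are the 2 H3.3-HA libraries, drawn in both panels. Lpl stands at 69.0 and 69.1% in WT and 13.6 and 13.7% in cKO for H3K27ac.

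For H3K36me3 the picture was mixed. Covered share was lower in cKO for 5 genes (Rxra, Pparg, Abca1, Abcg1 and Lpcat3) and higher for 2 (Nr1h2 and Lpl), beside 37.7% and 7.85% of 11975 genes. Of windows of at least 50 kb, 4 of 4 were lower beside 47% of all. The median difference was -5.39 points for the 10 genes and -4.99 points for all genes. Without cKO replicate 1, which covered the least of the genome, the same 5 genes were lower beside 38.2% of all, and 5 were higher (Nr1h2, Nr1h3, Apoe, Mylip and Lpl) beside 41.5%. The 5 lower genes could not drop out here, since fewer libraries can only keep or add calls. Both marks were lower in 5 genes (Rxra, Pparg, Abca1, Abcg1 and Lpcat3), beside 17.7% of 10774 genes with regions of both marks. Of these 5, all but Lpcat3 have windows of at least 50 kb, and the share among such windows is not given. Lpl was the 1 gene with H3K27ac lower and H3K36me3 higher, a combination found in 2.13% of the 10774 genes.

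Loss and gain of whole regions followed the same order of the marks. A lost H3K27ac region lay in the window of 7 genes (Nr1h2, Rxra, Abca1, Abcg1, Mylip, Lpcat3 and Lpl), beside 37.3% of all genes, and a gained one in 4 (Nr1h2, Nr1h3, Abca1 and Apoe), beside 17.3%. A lost H3K36me3 region was found in 3 genes (Rxra, Pparg and Abcg1), beside 23.6%, and a gained one in 0, beside 8.47%. These shares were taken over windows of all lengths. With regions of at least 1 kb only, the H3K27ac counts were 4 and 1, for which no share of all genes is given. Of 85 merged H3K27ac regions in these windows, 12 were lost, 5 gained and 14 present in all 4 libraries. By midpoint 11 of the 12 lost regions were intronic, beside 10 of the 14 in all 4 libraries and 51 of the 54 in none of these classes. Most regions were thus intronic whether lost or not. The median width of the lost regions was 1427 bp against 4480 bp for the regions in all 4 libraries. The 6 lost H3K36me3 regions were all intronic, beside 17 of 23 in all 4 libraries and 38 of 39 others.

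Most starts with H3K27ac within 1 kb in both WT libraries also had it within 1 kb in both cKO libraries. Within 1 kb of the start of the longest coding transcript, 6 genes had H3K27ac in both WT libraries (Nr1h2, Nr1h3, Pparg, Abcg1, Mylip and Lpl) and 7 in both cKO libraries (the first 5 of these plus Apoe and Lpcat3). Of the 6, 5 were covered in both cKO libraries, beside 79.8% of 6197 genes of the genome. The exception was Lpl, with 2000 bp covered in each WT library, 1319 bp in cKO replicate 1 and 0 bp in cKO replicate 2. Among the 5, Nr1h2 had separate regions in WT and in cKO, counted above as lost and as gained. The start of Rxra had no H3K27ac region in any library. H3K36me3 within 1 kb of starts was rare, at Apoe in all 4 libraries and at Lpl in the WT libraries, with 76 and 102 bp. In each case the regions began downstream of the start itself.

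Among the receptors, Nr1h2 stood apart by its small covered share of H3K27ac. The gene (ENSMUSG00000060601, chromosome 7, 44549616 to 44553951, minus strand) encodes LXRβ, which most cell types express. H3K27ac covered 7.03 and 6.71% of its window in WT and 5.37 and 7.93% in cKO, and the groups overlapped (exact permutation p = 1). In this window the position of the region differed, while covered length overlapped between the groups. A lost region of 682 bp had its midpoint at -0.614 kb from the start. A gained region of 846 bp lay across the start with its midpoint at 0.237 kb. The regions did not overlap and lay next to each other. The H3K27ac difference depended on the setting. It was 12.2 points with the gene body alone, 6.65 with equal numbers of regions per list and 2.72 with 20 kb on both sides. With regions of at least 1 kb it was 0. With 1 library left out it lay between -1.5 points (without cKO replicate 2) and 1.06 points (without cKO replicate 1). H3K36me3 covered 21.5 and 25.6% in WT and 29.0 and 35.6% in cKO, higher by 8.78 points without overlap. This was 5.48 points without cKO replicate 2, 18.9 points with the gene body alone and 2.24 points with 20 kb on both sides. Nr1h2 was the 1 gene of the 10 without an H3.3-HA region in both libraries.

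Nr1h3 encodes LXRα, the form enriched in macrophages, liver and fat. It lies on chromosome 2 (ENSMUSG00000002108, 91184061 to 91202834, minus strand), and its window takes in Acp2. H3K27ac covered 37.0 and 39.5% in WT and 25.6 and 29.9% in cKO, a difference of -10.5 points. Much of this length was a region of 6819 bp upstream over the start of Acp2, with 6131 and 6613 bp in WT and 4196 and 4169 bp in cKO. The difference was -5.65 points with the gene body alone, -6.25 points with 20 kb on both sides and -17.2 points with regions of at least 1 kb. The cKO libraries were both lower, and 25.1% of the bases covered in both WT libraries were covered in neither cKO library. The region at the start remained in all 4 libraries, with 3118 and 3020 bp in WT and 1399 and 2150 bp in cKO. The gained region counted here, of 1376 bp over a start site of Madd, lay past the end of the gene by its midpoint and reached into the window at its edge in cKO replicate 2 only. H3K36me3 overlapped between groups at 7.74 and 7.59% in WT and 6.27 and 10.1% in cKO, and none of it lay in the body of Nr1h3.

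Rxra, the shared partner of LXRs and PPARs, was lower for both marks in both cKO libraries. The gene spans 86518 bp of chromosome 2 (ENSMUSG00000015846, 27676440 to 27762957, plus strand). H3K27ac covered 25.3 and 20.4% in WT and 6.94 and 5.21% in cKO, a 3.76-fold difference of the means (22.8% ± 3.49 and 6.07% ± 1.23, SD, n = 2 each). The longest region, in intron 1 at 13.3 kb from the start, measured 8450 and 7331 bp in WT and 1628 and 501 bp in cKO. The lost regions lay 2.96 kb (1418 bp wide, intron 1) and 81.0 kb (1930 bp wide, intron 9) from the start, and the centre of the second is printed above. H3K36me3 was confined to the body after its midpoint in all 4 libraries, at 40.1 and 38.7% in WT and 9.55 and 6.59% in cKO. A block of 10179 and 10229 bp at 75.6 kb in WT was left with 1024 bp in cKO replicate 1 and none in cKO replicate 2. Since cKO replicate 2 covered as much of the genome as a WT library, the low H3K36me3 share of Rxra did not rest on replicate 1. Of the bases covered in both WT libraries, 62.2% for H3K27ac and 79.0% for H3K36me3 were covered in neither cKO library.

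**Figure D2:**
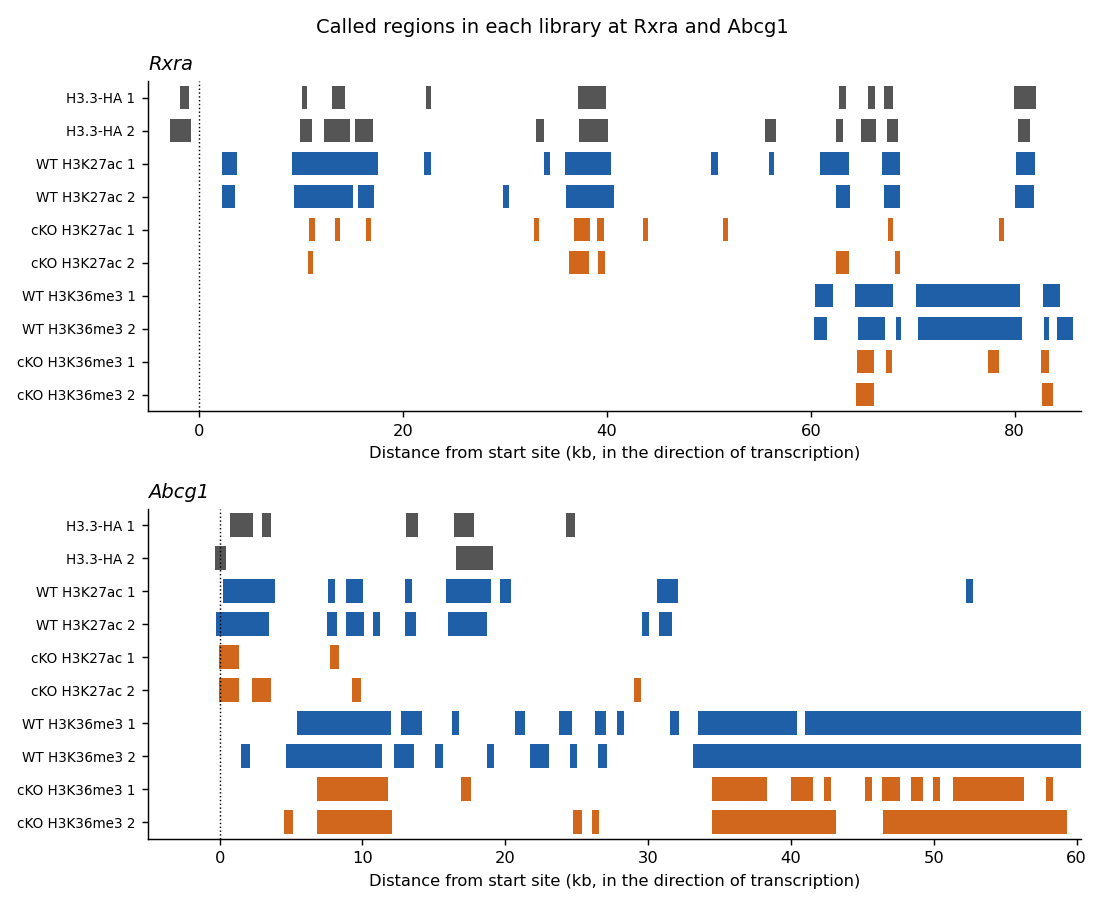
Called regions of each of the 10 libraries along Rxra (above) and Abcg1 (below), as bars against distance from the start site in kb, with the start at 0. At Rxra the H3K36me3 block centred at 75.6 kb is present in both WT libraries and measures 1024 bp in cKO replicate 1. At Abcg1 the cKO H3K27ac bars remain at the start, and the 3161 bp intron 2 region at 17.4 kb is missing.

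Pparg, which encodes the fatty acid sensor PPARγ, kept more of its covered H3K27ac length. It spans 129449 bp of chromosome 6 (ENSMUSG00000000440, 115360951 to 115490399, plus strand). H3K27ac covered 16.1 and 15.9% in WT and 11.1 and 11.4% in cKO, a difference of -4.78 points that exceeded the SD of 0.0994 in WT and 0.175 in cKO. The difference lay toward the end of the gene. Before the midpoint of the body, covered share was 17.9 and 16.8% in WT and 14.6 and 16.3% in cKO, and after it 15.2 and 16.0% in WT and 8.17 and 6.53% in cKO. The region at the start was not shorter in cKO, with 2340 and 2830 bp against 1207 and 2145 bp in WT. H3K36me3 covered 34.1 and 42.6% in WT and 15.9 and 26.0% in cKO, and it was broken into 30 merged regions, of which 4 were lost. All 4 lost regions lay in intron 2, between 34.3 and 57.5 kb from the start.

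Both transporter genes were called lower for both marks, but at Abca1 the differences depended on the setting or on 1 library. Abca1, which loads cholesterol onto lipid-poor apolipoprotein A-I, spans 129109 bp of chromosome 4 (ENSMUSG00000015243, 53030787 to 53159895, minus strand). It had the lowest H3K27ac share of the 10 genes in WT and in cKO, at 3.59 and 4.70% in WT and 1.83 and 3.08% in cKO. Just 1.42 kb were covered in both WT libraries, and none of these bases was covered in a cKO library. The lost regions lay 34.5 and 79.6 kb from the start and the gained ones 40.0 and 43.6 kb, all in introns. The gained region at 40.0 kb measured 2847 bp after merging and was overlapped by H3.3-HA in both libraries (921 and 2013 bp). The WT libraries also differed from each other, with 5 regions in replicate 1 only, 8 in replicate 2 only and 2 in both. The small difference of -1.69 points turned to 0.277 points with equal numbers of regions per list and to 0.825 points with regions of at least 1 kb.

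H3K36me3, by contrast, covered more of Abca1 than of any other gene of the 10 in WT. The shares were 82.3 and 82.5% in WT, 59.0% in cKO replicate 1 and 82.1% in cKO replicate 2. The groups did not overlap, but cKO replicate 2 was lower than the nearer WT library by less than 1 point, so the mean difference of -11.9 points rested on cKO replicate 1 and was -0.346 points without it. All 5 merged H3K36me3 regions of Abca1 were found in all 4 libraries. Among the genes with the most similar shares over all 10 libraries were Heatr1 and Sptan1, at Euclidean distances of 9.29 and 9.58 points. All 10 libraries entered the measure of likeness, so their H3K36me3 shares in cKO replicate 1, 62.6 and 52.7%, are part of the choice.

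**Figure D3:**
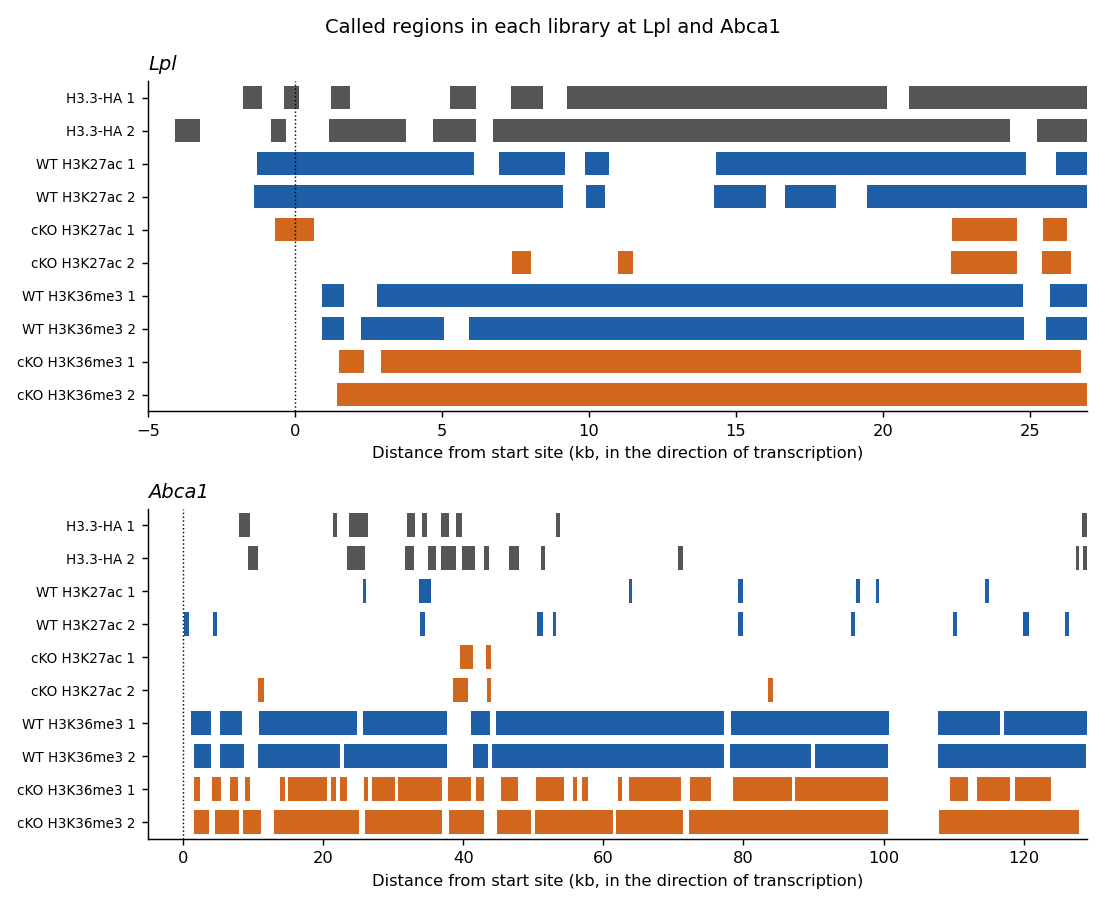
Called regions of each library along Lpl (above) and Abca1 (below), as bars against distance from the start site in kb. Both WT H3K27ac libraries fill most of Lpl and the cKO libraries hold 4.35 and 4.38 kb, while H3K36me3 fills the body in all 4 libraries. At Abca1 the H3K27ac bars are few, and of those in WT 5 stand in replicate 1 only, 8 in replicate 2 only and 2 in both.

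Abcg1, which exports cholesterol to mature HDL, was lower for both marks. It spans 60314 bp of chromosome 17 (ENSMUSG00000024030, 31057675 to 31117988, plus strand). H3K27ac covered 17.8 and 17.1% in WT and 3.11 and 6.00% in cKO, a 3.84-fold difference of the means (17.5% ± 0.487 and 4.56% ± 2.05, SD, n = 2 each). The merged region at the start was present in all 4 libraries, with 3621 and 3749 bp in WT and 1399 and 2792 bp in cKO. In WT replicate 1 it began 0.265 kb after the start. The 3 lost regions lay in intron 2, at 13.3, 17.4 and 31.4 kb from the start, and together measured 5361 bp. The 3161 bp region at 17.4 kb, whose centre is printed above, carried H3.3-HA in both libraries (1406 and 2458 bp). After the midpoint of the body H3K27ac covered 6.42 and 3.10% in WT and 0% in both cKO libraries. H3K36me3 covered 58.9 and 60.5% in WT and 30.9 and 43.7% in cKO. Its share after the midpoint was 89.3 and 90.1% in WT, 48.2% in cKO replicate 1 and 71.4% in cKO replicate 2, so both cKO libraries were lower than WT there.

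Apoe, the apolipoprotein that takes up exported cholesterol, gave no call for either mark. The gene is short (3080 bp, chromosome 7, ENSMUSG00000002985, 19696109 to 19699188, minus strand), and its window takes in part of Tomm40. H3K27ac covered 16.1 and 40.2% in WT and 15.3 and 17.5% in cKO, and WT replicate 2 alone was high. In the gene body H3K27ac was called in WT replicate 2 only, and the acetylated region found in all 4 libraries had its midpoint at -2.005 kb from the start. H3K36me3 covered 49.9 and 42.1% in WT and 40.8 and 59.3% in cKO, with all bases after the midpoint covered in every library. The gained H3K27ac region of 663 bp had its midpoint at -5.11 kb, at the edge of the window.

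Mylip lies on chromosome 13 (ENSMUSG00000038175, 45389742 to 45412022, plus strand). H3K27ac covered 39.6 and 18.7% in WT and 8.71 and 15.8% in cKO. The groups did not overlap, but the WT libraries differed from each other by more than WT replicate 2 differed from either cKO library. The difference of -16.9 points was -6.37 without WT replicate 1 and -27.3 without WT replicate 2, and -9.71 with 20 kb on both sides of the gene. The merged region nearest the start was called in all 4 libraries, but it covered the start itself in cKO replicate 2 only. It began 0.729 and 0.744 kb after the start in WT and 0.42 kb after it in cKO replicate 1. The 2 lost regions lay 13.1 kb (intron 2) and 15.3 kb (intron 3) downstream. After the midpoint of the body H3K27ac covered 31.0 and 10.9% in WT and 0% in both cKO libraries. H3K36me3 overlapped between the groups, at 58.6 and 61.2% in WT and 43.0 and 71.2% in cKO.

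Lpcat3 lies on chromosome 6 (ENSMUSG00000004270, 124663027 to 124704418, plus strand), with Emg1 in its window. H3K27ac covered 19.1 and 10.0% in WT and 7.51 and 9.59% in cKO, and WT replicate 2 was above cKO replicate 2 by less than 1 point. The difference of -6.00 points was -1.45 without WT replicate 1 and -10.5 without WT replicate 2. At the start WT replicate 1 had 1465 bp covered within 1 kb, WT replicate 2 had 0 bp and both cKO libraries had 2000 bp. The lost region (1717 bp, intron 1) lay 8.16 kb from the start and was overlapped by H3.3-HA in both libraries. H3K36me3 covered 16.0 and 17.4% in WT, 4.69% in cKO replicate 1 and 12.8% in cKO replicate 2, and the difference of -7.96 points was -3.89 without cKO replicate 1.

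The largest difference was at Lpl, the gene of lipoprotein lipase on chromosome 8 (ENSMUSG00000015568, 68880491 to 68907448, plus strand). H3K27ac covered 69.0 and 69.1% of its window in WT and 13.6 and 13.7% in cKO (69.0% ± 0.0797 and 13.7% ± 0.0664, SD, n = 2 each), a 5.06-fold difference of the means. Of 12767 genes tested, 2 had a more negative difference than the -55.4 points of Lpl, namely Phxr2 (-69.7 points, in a window of 6.16 kb) and Lyz2 (-65.1 points), the locus that holds Cre in cKO cells. These 2 were named after their values were seen. With 20 kb on both sides of the gene the difference of Lpl was -30.3 points. In WT replicate 1 acetylated regions ran from 1.29 kb before the start to 6.08 kb inside the gene and from 14.3 to 24.9 kb, and WT replicate 2 was alike. In cKO both libraries held a region from 22.3 to 24.6 kb and a further one near 25.4 to 26.3 kb, and a few short regions elsewhere differed between them. Before the midpoint of the body H3K27ac covered 67.7 and 72.3% in WT and 4.70 and 8.37% in cKO.

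H3K36me3 at Lpl was not lower in either cKO library. It covered 75.02 and 74.79% in WT and 77.3 and 79.9% in cKO, higher by 3.68 points (2.39 without cKO replicate 2 and 0.643 with 20 kb on both sides), and cKO replicate 1 was above both WT libraries although it covered the least of the genome. Of the bases covered in both WT libraries, 76.5% lost H3K27ac in both cKO libraries, while 96.2% kept H3K36me3 in both. The lost H3K27ac region (824 bp, intron 2, 10.3 kb from the start) was covered by H3.3-HA over its whole width in both H3.3-HA libraries. Under the rule used here a long region with a fragment left in cKO counts as present, so Lpl has 1 lost region beside its large difference in covered share.

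**Figure D4:**
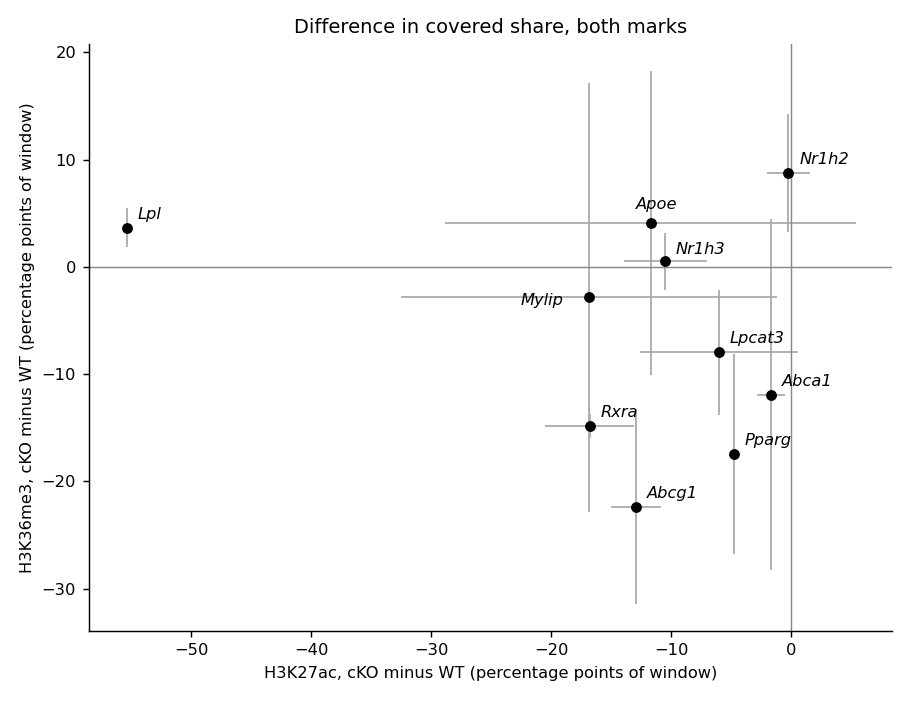
Difference in covered share, cKO minus WT, of H3K27ac (horizontal) and H3K36me3 (vertical) in percentage points of the window, 1 point per gene. Bars are the root of the summed squares of the WT and cKO SD (n = 2 each). Lpl stands alone at -55.4 and 3.68 points, and Rxra and Abcg1 lie low on both axes.

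The order of the genes by H3K27ac differed between the groups. In WT Lpl was highest and both of its libraries were above those of the next gene, Nr1h3. From Nr1h3 through Mylip and Apoe to Rxra each gene overlapped its neighbour, and Abca1 was lowest. In cKO Nr1h3, whose window holds the region at Acp2, was highest at 27.7% ± 2.98, above Apoe at 16.4% ± 1.51 (SD, n = 2 each), and Lpl ranked 3, overlapping Mylip. Rxra ranked 5 in WT and 8 in cKO. For H3K36me3 Abca1 and Lpl led in both groups, in reversed order in cKO by the means, where their libraries overlapped.

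The H3.3-HA lists come from cells in which H3.3 was tagged and not deleted, and show where the variant lay. H3.3-HA regions were found in both libraries at 9 of the 10 genes, beside 44.2% of 21938 genes. Those 21938 include genes without a region of either mark, whereas all 10 genes had regions of both marks, so the sets are unlike. Covered share was highest at Lpl, with 64.7 and 77.3%, and both libraries were above those of any other of the 10 genes. Apoe followed at 24.7 and 54.6% and Nr1h3 at 29.7 and 48.4%, and these overlapped. The remaining shares lay between 4.18 and 17.9%, except for Nr1h2 at 0 and 2.16%. Within 1 kb of the start both H3.3-HA libraries had a region at Rxra, Pparg, Abcg1, Apoe and Lpl, and neither had one at Nr1h2, Abca1 and Mylip. At Rxra these were edges of upstream regions, with 19 and 210 bp inside this distance, and the start itself was not covered.

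H3K27ac bases that remained in cKO lay under H3.3-HA more often than bases that were lost, here and genome-wide. Of 84.1 kb with H3K27ac in both WT libraries, 54.4% were covered in neither cKO library, beside 39.9% of such bases over all genes. Bases under H3.3-HA of both libraries made up 46.2% of the kept and 35.3% of the lost bases, beside 30.9% and 20.0% over all genes. By regions, 13 of 14 H3K27ac regions present in all 4 libraries and 5 of 12 lost ones were overlapped by both H3.3-HA libraries. The kept regions were wider, as given above, which by itself makes an overlap likelier, and the part of width in this count was not tested. Of 248 kb with H3K36me3 in both WT libraries, 16.9% were covered in neither cKO library, beside 14.9% over all genes.

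**Figure D5:**
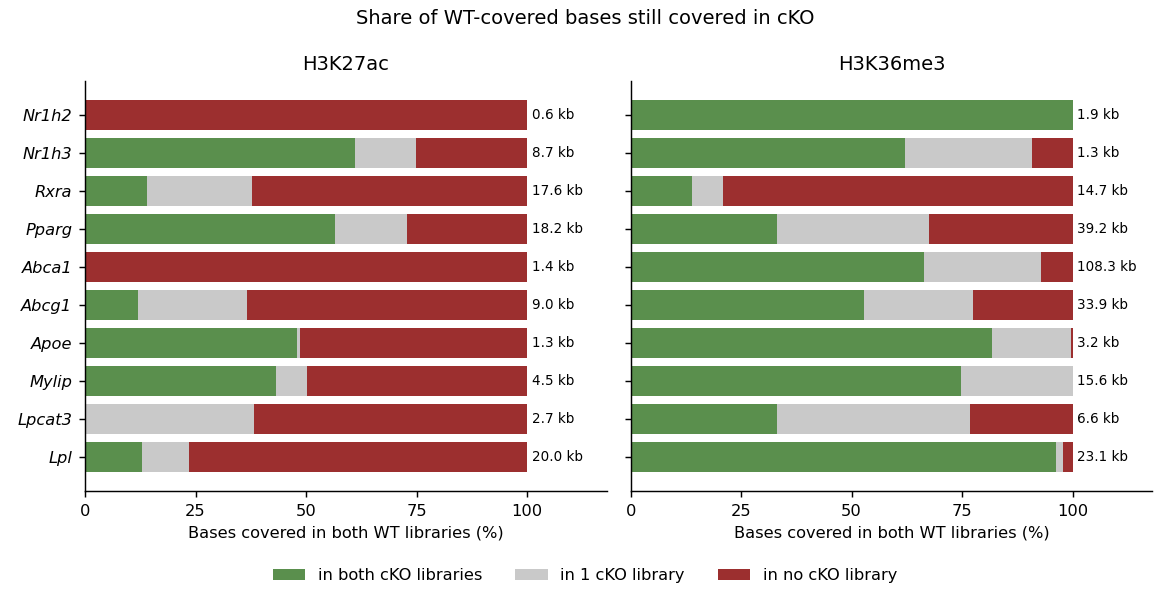
Bases covered in both WT libraries, split by the number of cKO libraries that cover them, as percent of the kb printed at the right of each bar. H3K27ac (left) has 76.5% of such bases at Lpl in no cKO library, and H3K36me3 (right) has 2.21% there. Nr1h2 and Abca1 rest on 0.600 and 1.42 kb of H3K27ac.

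A list of 46 further genes of LXR and PPAR action, with cofactors, lipid synthesis and cholesterol transport genes, gave the same main direction for H3K27ac with smaller differences. This list too was chosen with earlier results of these data known. All 46 matched a gene, and 39 had an H3K27ac region. Of these, 23 were lower in cKO (59.0%) and 3 higher (Rxrb, Ppard and Arl4c), beside 38.2% and 17.4% of all genes, with a median difference of -3.46 points. A lost region was found at 21 (53.8%) and a gained one at 6 (15.4%), beside 37.3% and 17.3%. For H3K36me3, 36 genes had a region, of which 14 were lower (38.9%) and 5 higher (13.9%, Cd36, Npc2, Lipa, Nceh1 and Lrp1), beside 37.7% and 7.85% of all genes. The share lower was thus near that of all genes, and the median difference was -4.08 points.

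The genes with the greatest lost H3K27ac length in this list were the coactivator gene Ncoa2 (20593 bp), Tbl1xr1 of the corepressor complex (8000 bp) and Npc1, which moves cholesterol out of lysosomes (7594 bp). At Ncoa2 H3K27ac covered 14.5 and 13.1% in WT and 2.01 and 3.28% in cKO, and H3K36me3 22.4 and 24.0% against 4.85 and 14.4%. At Npc1 the H3K27ac shares were 48.2 and 45.2% in WT and 20.98 and 26.02% in cKO, whereas H3K36me3 overlapped at 63.5 and 65.8% against 62.4 and 68.2%. The greatest gained H3K27ac lengths were at the corepressor gene Ncor1 (1479 bp), at Rxrb (1335 bp) and at the fatty acid receptor gene Cd36 (874 bp). Cd36 also had 4151 bp of lost regions and was lower in cKO, at 30.1 and 35.8% in WT and 28.4 and 29.9% in cKO, and Ncor1 had 1378 bp of lost regions and overlapped. Rxrb, which encodes another form of the retinoid X receptor, ran opposite to Rxra: H3K27ac covered 4.32 and 0% in WT and 30.3 and 39.3% in cKO, and its H3K36me3 overlapped at 43.5 and 43.9% against 23.5 and 54.8%.

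For H3K36me3 the greatest lost lengths were at Acaca, the gene of the enzyme that makes malonyl-CoA (13447 bp), at Ncoa2 (7815 bp) and at Ppard (4375 bp). Acaca had 15.7 and 16.8% covered in WT and 1.16 and 3.31% in cKO, so both cKO libraries were far below WT. Ppard, which encodes PPARδ, had 27.8 and 27.7% in WT and 5.26 and 19.04% in cKO, while its H3K27ac was higher at 10.6 and 11.5% in cKO against 5.54 and 7.76% in WT. Gained H3K36me3 regions were found at Ncoa3 (939 bp) and Lrp1 (178 bp), among others. Lrp1, a large receptor for lipoprotein remnants, had 81.0 and 83.9% in WT and 92.6 and 94.0% in cKO.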

How the data were processed

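CUT & RUN region lists of 10 BMDM libraries were analyzed. The 5 IgG samples were not analysed here. The authors trimmed reads, used Bowtie2 (local mode, mm10) for alignment, and called regions against IgG library by library with HOMER in histone style. Per the file headers, peaks of 500 bp with a minimum distance of 1000 bp had to reach 4-fold over the control and a Poisson p-value of 1e-04, also against the local 10000 bp. The control differed by genotype, so control and genotype cannot be told apart. The deposited files give region starts and ends in bp, and a score column that is constant and was not used, so no read depth per region was available. The differential analysis of the study used read counts and could not be repeated.

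Overlapping regions within a list were joined, and the 4 lists of a mark were merged, with an overlap of 1 bp counted as present. Covered share was computed per gene window with Python 3.11.15 and NumPy 2.4.6, for all 21938 protein-coding genes (GENCODE M21), and the interval code was tested on simulated data. Group and replicate number came from the labels, and nothing in the labels says whether replicates with the same number share an animal. Group values were compared with the two-sided exact permutation test. The named genes were the 10 genes, the 3 genes of the further list with the greatest lost or gained length for each mark, and the 3 genes nearest to Abca1. Some results of this rule are not reported here. The 10 genes, the list of 46 genes and the tests were chosen with earlier results of these data known. Alternatives changed the window, the minimum width, the number of regions per list and the overlap, left out each library, and used the replicate number as a block.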

Additional observations from a re-analysis of the deposited data

How the results depend on the processing

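With the replicate block and with each library left out, a difference called lower or higher could not change direction, since the call asks for no overlap. These settings are therefore no check of direction. Of the 15 coverage differences called lower or higher, 15 kept their direction with the gene body alone and with 20 kb on both sides. With equal numbers of regions per list and with regions of at least 1 kb, 14 did. The exception under both was H3K27ac at Abca1, which turned to 0.277 and 0.825 points. The cause was not tested. Keeping the direction is not keeping the call: the number of genes with H3K27ac lower, 8 as reported, was 6 under both of these settings and 7 with 20 kb on both sides. The number of genes with H3K27ac higher in cKO, 0 in the values reported, was 1 with equal numbers of regions, with the gene body alone, with 20 kb on both sides and with regions of at least 1 kb. The number with H3K36me3 higher, 2 as reported, was 0 with 20 kb on both sides. With regions of at least 1 kb, 1 gene had a gained and 4 a lost H3K27ac region, against 4 and 7. Requiring 50% of the merged region to be covered gave 1 gene with a gained H3K36me3 region, against 0. The share of all genes under these settings is not given, so whether it moved with these counts cannot be read here.

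With 1 library left out, the number of genes with H3K27ac lower ranged from 8 to 10, beside 40.4% to 57.5% of all genes, and higher from 0 to 1. H3K36me3 was lower in 5 to 8 genes and higher in 2 to 5, and the extremes were those without cKO replicate 2 (8 lower, beside 79.9% of all genes) and without cKO replicate 1 (5 higher, beside 41.5%). Genes with a lost H3K27ac region ranged from 7 to 8 and with a gained one from 4 to 7, where 7 was without cKO replicate 1. Genes with a lost H3K36me3 region ranged from 3 to 5, where 5 was without WT replicate 1, and with a gained one from 0 to 2. Genes with an H3.3-HA region in each library left were 9 to 10. Leaving out a library can only keep or add such calls. None of these counts could therefore fall below its value with all libraries.

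With the replicate block, 9 genes were lower for H3K27ac, 5 lower and 2 higher for H3K36me3, against 8, 5 and 2, so the block moved no count of coverage calls by more than 1.5 times. The block rule asks less than absence of overlap, and its share of all genes is not given. The deviations of same-numbered libraries correlated across genes at -0.101 for H3K27ac and 0.104 for H3K36me3, so whether the numbers pair the samples was not settled, and they were treated as numbers only. A crossed pairing, chosen after seeing the data, gave 8 lower and 0 higher for H3K27ac and 5 lower and 2 higher for H3K36me3. Without a height per region, a difference in length cannot be told apart from a signal near the calling threshold.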
